A study of Mus musculus with 4 samples.

Results

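The 44 genes described here encode the machinery of mitosis: the cyclins and kinases that start it, the chromosomal passenger and checkpoint proteins that supervise it, and the kinesins, kinetochore proteins and cytokinesis factors that carry it out. The list was made by function, with earlier results of these data known, and each was read from the probe set with the highest mean signal among those that the platform's annotation names for that gene alone. Such a probe set was found for 43 of the 44, out of 18193 genes so named. The gene of cyclin B1, Ccnb1, is the member without one and was not analysed here. Of the 18193 genes, 12819 passed a filter on dim signals, and all 43 members measured were among them.

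The samples were CD4 T cells of 2D2 mice, whose transgenic T cell receptor recognises a peptide of myelin oligodendrocyte glycoprotein. One genotype was wildtype and the other lacked miR-146a, which is best known as a brake on NF-kB signalling in immune cells, and both carried the 2D2 transgene. Naive cells had been sorted and then stimulated for 3 days with anti-CD3 coated on plates at 5 µg/ml and soluble anti-CD28 at 1 µg/ml, so both groups consist of activated cells and there is no resting control. RNA was hybridised to 4 Affymetrix mouse expression arrays, 2 per genotype, each titled a biological replicate. The labels do not state if separate mice or cultures stand behind them, how old the mice were, or in which cell types miR-146a was deleted. The p-values therefore measure the spread between these arrays, which may be technical, and the number of arrays limits the precision. Mir146 itself has no named probe set, which leaves its loss unchecked on these arrays.

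Naive T cells are quiescent, and signals through the T cell receptor and CD28 drive them into rapid rounds of division. Mitotic transcripts are kept low in quiescent and early cycling cells and rise together in late S phase and G2, when the DREAM repressor complex gives way to the activators B-MYB and FOXM1. Both act largely through a short promoter element, the cell cycle genes homology region or CHR, often found downstream of CCAAT boxes bound by the factor NF-Y. These genes are widely used as a readout of how much of a cell population is dividing.

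The microRNA that differs between the genotypes and the promoters of 5 members are shown first, as the sequences behind the comparison. The mature microRNA, with its seed (bases 2 to 8, the part that pairs with targets) in capitals, is given by RefSeq at chr11:43374435-43374456, minus strand, in build GRCm38.p6.
mmu-miR-146a-5p: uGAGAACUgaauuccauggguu

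RefSeq promoter windows of 300 bases, 250 before to 50 after the gene start in build GRCm38.p6, were matched by symbol for 37 of the 44 members. The windows of Ccna2, Cdc25c, Cdca2, Aurkb, Incenp, Kif20a and Tpx2 were not used here. Shown are the windows of Cdk1, Ccnb2 and Plk1, which encode core regulators of mitotic entry, of Cdca3, a member with a small positive difference whose arrays did not overlap, and of Kif23, the member with the largest difference of all. Capitals mark the CHR letters TTTGAA and the CCAAT box, on either strand, where the reverse strand reads TTCAAA for the first of these and ATTGG for the second. The windows lie at chr10:69352863-69353162, minus strand for Cdk1, at chr9:70421505-70421804, minus strand for Ccnb2, at chr7:122159185-122159484, plus strand for Plk1, at chr6:124829926-124830225, plus strand for Cdca3 and at chr9:61946750-61947049, minus strand for Kif23.
Cdk1: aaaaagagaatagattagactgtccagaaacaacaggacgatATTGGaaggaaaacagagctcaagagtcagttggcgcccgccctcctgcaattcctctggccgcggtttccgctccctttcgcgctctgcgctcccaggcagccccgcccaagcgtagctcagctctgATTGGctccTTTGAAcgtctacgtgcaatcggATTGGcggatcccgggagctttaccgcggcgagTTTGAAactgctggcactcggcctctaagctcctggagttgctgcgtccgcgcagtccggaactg
Ccnb2: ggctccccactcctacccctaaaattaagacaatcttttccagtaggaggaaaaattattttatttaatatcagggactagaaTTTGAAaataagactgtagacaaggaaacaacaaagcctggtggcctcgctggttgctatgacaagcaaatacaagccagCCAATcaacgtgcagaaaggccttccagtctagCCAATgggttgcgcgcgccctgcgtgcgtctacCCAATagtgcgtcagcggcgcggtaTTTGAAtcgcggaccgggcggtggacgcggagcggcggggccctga
Plk1: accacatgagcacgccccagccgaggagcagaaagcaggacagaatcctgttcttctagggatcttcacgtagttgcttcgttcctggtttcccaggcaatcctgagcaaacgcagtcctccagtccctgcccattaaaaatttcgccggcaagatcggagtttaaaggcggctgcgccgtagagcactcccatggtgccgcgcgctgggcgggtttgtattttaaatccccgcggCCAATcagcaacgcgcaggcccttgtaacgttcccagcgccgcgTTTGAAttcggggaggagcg
Cdca3: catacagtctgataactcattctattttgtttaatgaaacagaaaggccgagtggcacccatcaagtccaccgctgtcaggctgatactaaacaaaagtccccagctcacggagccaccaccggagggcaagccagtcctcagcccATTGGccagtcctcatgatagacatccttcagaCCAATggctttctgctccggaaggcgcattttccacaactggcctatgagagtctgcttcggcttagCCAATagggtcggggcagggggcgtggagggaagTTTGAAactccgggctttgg
Kif23: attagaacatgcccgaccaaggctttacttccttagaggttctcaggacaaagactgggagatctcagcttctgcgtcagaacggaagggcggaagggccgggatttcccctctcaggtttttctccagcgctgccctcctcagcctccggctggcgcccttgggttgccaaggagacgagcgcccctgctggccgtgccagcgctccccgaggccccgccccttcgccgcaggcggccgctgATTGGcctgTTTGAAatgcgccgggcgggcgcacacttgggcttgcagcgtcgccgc

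These letters were common among the members. TTTGAA was found in the windows of 28 of 37 members (75.7%), against 20.2% of all 27025 genes with a window and 14.5% of the 10373 of them that were tested on the arrays. Its variant TTCGAA was found in 4 of 37 members (10.8%), against 1.80% of all genes. CCAAT was found in 28 of 37 (75.7%), against 41.1%, and 24 members (64.9%) held both TTTGAA and CCAAT, against 8.97%. One of the TTTGAA matches in the members' windows shared bases with a match to TTCGAA or CCAAT. Of the E2F-like letters, neither TTTCCCGC nor TTTGGCGC was found in a member's window, where 1.24% and 0.585% of all windows held them. A match of letters is a description and not a measured binding site. On the lists of related genes the shares differed: TTTGAA was in 36.2% of 105 further mitosis genes and in 21.4% of 14 genes of the step from G1 to S phase.

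The matches also had a preferred place. Counting 1 window per gene in bins of 50 bases, TTTGAA lay in the first 50 bases after the gene start in 16 of 37 members (43.2%, against 2.32% of all genes) and in the 50 bases before it in 10 (27.0%, against 2.90%). CCAAT lay mostly upstream, in the 50 bases before the start in 19 members (51.4%, against 9.64%) and in the 50 before those in 16 (43.2%, against 12.9%). The order is visible in the windows of Plk1 and Kif23, where the CCAAT letters stand before the TTTGAA.

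**Figure D1:**
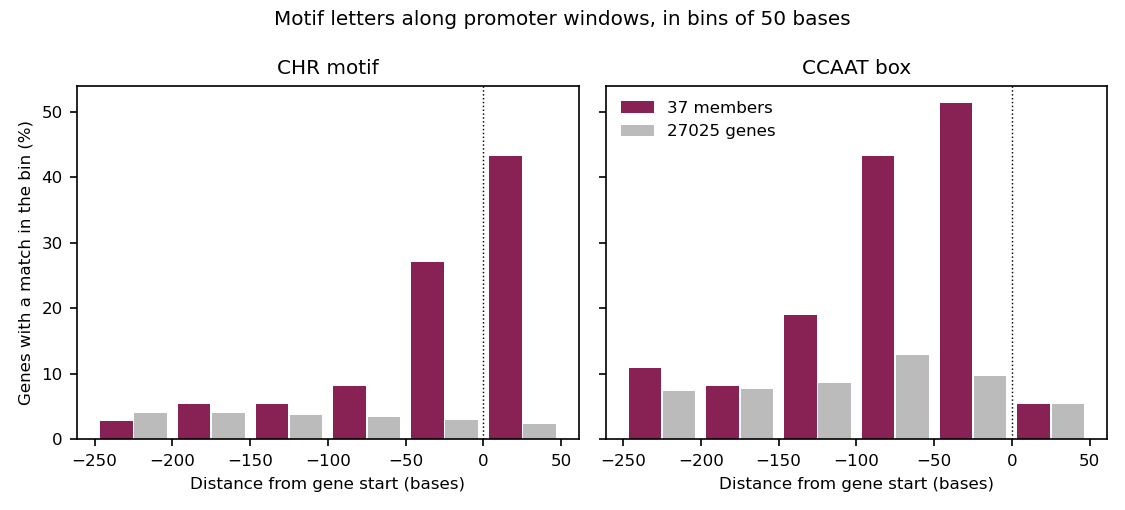
The bars give the share of genes with at least 1 match to the CHR letters (left) or the CCAAT box (right) in each bin of 50 bases, for the 37 members with a promoter window and for 27025 genes, by distance from the gene start. CHR matches of the members peak at 43.2% in the bin just after the start and CCAAT matches at 51.4% in the bin just before it.

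All 43 members were strongly expressed in both genotypes. Signals are MAS5 values scaled so that each array has a trimmed mean of 500, and the lowest value of any member on any array was 533, where the filter on dim genes lay at 29.9. None of the 43 differed between the genotypes when limma's moderated test was adjusted over all tested genes (Benjamini-Hochberg threshold 0.05), where 0.179% of all 12819 genes did, 0.172% (22 genes) higher and 0.0078% (1 gene) lower in deficient cells. The smallest adjusted p of a member was 0.652. Differences are given below as deficient minus wildtype on the scale log2(signal + 14.7), with the SE. Their median over the members was 0.03, beside a median of -0.01 over all tested genes, and 24 of the 43 lay above 0, where 47.5% of all tested genes did. The sign of that small median rests on single arrays: it was -0.03 without wildtype replicate 2 (15 of 43 above 0) and -0.0021 without deficient replicate 1 (21 above 0). It also moves with the scaling, to 0.12 with 34 of 43 above 0 when each array is centred on the median of all its probe sets, and the median of all tested genes then moves to 0.07. In RNA of a whole culture, fewer cells in mitosis and less transcript per cell cannot be told apart.

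The precision of these values is better shown by intervals than by the missed threshold. The 95% interval of each difference, taken 1 gene at a time, lay inside 1.5-fold in either direction for 41 of the 43 members, against 57.3% of all tested genes. The members are bright, and their median SE was 0.108, against 0.160 over all tested genes. If this contrast reflects more than brightness was not tested. The exceptions were Kif23 and Cdc25b. The widest reach of any member's interval was -0.67 on the low side (Kif23) and 0.45 on the high side (Tpx2). A change that lies within a member's interval is therefore not shown to be absent. The limit differs by gene, with intervals of -0.13 to 0.26 for Mki67 and -0.61 to 0.10 for Cdc25b.

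**Figure D2:**
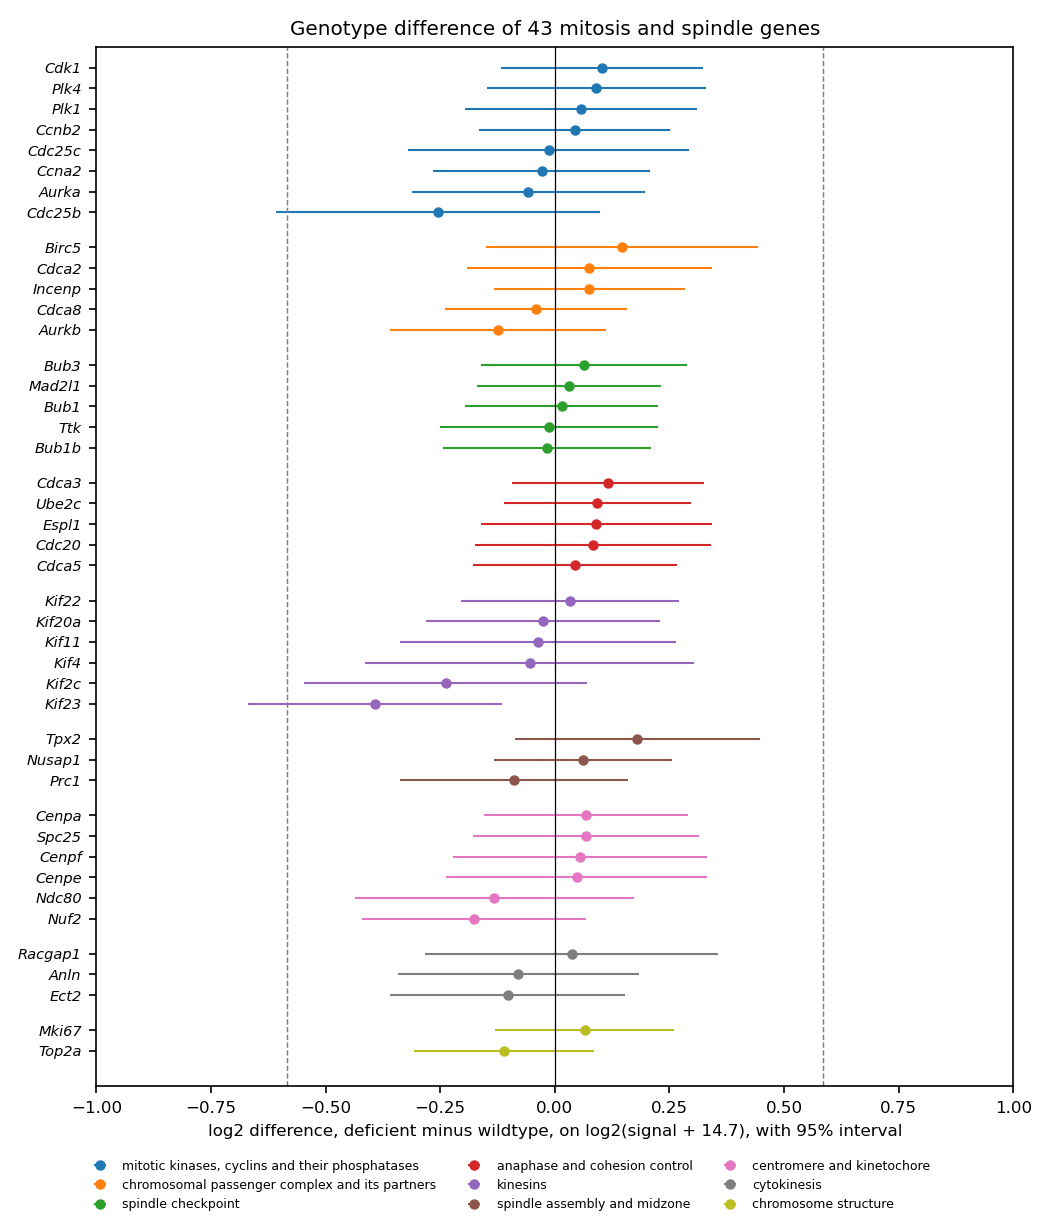
Points are the log2 differences of the 43 members, deficient minus wildtype, with 95% intervals from limma, grouped by role, and dashed lines mark 1.5-fold in either direction. Only the intervals of Kif23 and Cdc25b cross a dashed line, and the interval of Kif23 is the only one that does not include 0.

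Among the genes that trigger mitosis, 4 of the 8 measured lay above 0 and 4 below, and in none did the arrays of the chosen probe set separate the genotypes. Cdk1, the kinase that drives entry into mitosis, read 6195 and 5591 in wildtype cells against 6592 and 6062 in deficient cells, and the groups overlapped. Ccnb2, which encodes a B-type cyclin that activates Cdk1, read 3568 and 3449 against 3670.3 and 3560.1, also overlapping. Plk1, a kinase of mitotic entry and spindle assembly, read 1919.6 and 1689 against 1944 and 1805. In each of these 3 genes wildtype replicate 2 was the lowest array and deficient replicate 1 the highest. Their differences were 0.10 ± 0.10, 0.04 ± 0.09 and 0.06 ± 0.11. Plk4, the kinase of centriole duplication, read 3729.9 and 3232 against 3823 and 3578, with the same order of arrays and a difference of 0.09 ± 0.10. Its dimmer probe sets above the filter gave -0.01 and -0.30, the latter with both deficient arrays below both wildtype arrays. Cdc25b, a phosphatase that activates Cdk1, read 1033 and 1306 against 871 and 1081 and had the lowest value of this group, -0.26 ± 0.15 (limma adjusted p = 0.964). Its second array was the higher in both genotypes, by 0.33 in wildtype and 0.31 in deficient cells on the log2 scale. The Cdc25b difference was -0.42 and -0.09 without wildtype replicates 1 and 2, and -0.10 and -0.41 without deficient replicates 1 and 2. Ccna2 (cyclin A), Cdc25c and Aurka, a kinase of the spindle poles, lay between -0.06 and -0.01.

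Genes of the chromosomal passenger complex, which corrects faulty attachments of chromosomes to the spindle, went to both sides of 0. Aurkb, its kinase, read 3382 and 2947 against 2864 and 2925, so that the genotypes did not overlap, with the second wildtype array just above the second deficient one, and its difference was -0.12 ± 0.10. The dimmer Aurkb probe set gave 0.01. Birc5, which encodes survivin, read 4669 and 3855 against 5193 and 4253, with a difference of 0.15 ± 0.13. The second array was lower than the first in both genotypes, at -0.28 and -0.29 on the log2 scale, and the groups overlapped. The Birc5 difference was 0.0034 without deficient replicate 1 and 0.29 without deficient replicate 2, and 0.28 and 0.0095 without wildtype replicates 1 and 2. The scaffold Incenp, the subunit gene Cdca8 and Cdca2, which encodes a phosphatase-targeting protein of anaphase chromatin, lay between -0.04 and 0.08. For Cdca2 both deficient arrays were above both wildtype arrays. A dimmer Cdca2 probe set above the filter, named for its value, went the other way without overlap: 381 and 331 against 283 and 271, or -0.34.

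The spindle checkpoint, which delays anaphase until every chromosome is attached, held differences close to 0 at the chosen probe sets. There its 5 genes, the kinase genes Bub1 and Ttk with Bub1b, Bub3 and Mad2l1, lay between -0.02 and 0.06. For none of them did the arrays of that probe set separate the genotypes. Of the 5, 3 were above 0, a count that went to 2 with quantile normalization and to 5 with centring on all probe sets. Bub1 read 3400.4 and 3456 against 3559.7 and 3369.5, a difference of 0.01 ± 0.09. Deficient replicates gave both the highest and the lowest of these 4 values. Dimmer probe sets above the filter spread wider: -0.14 for Bub1, -0.12 and -0.41 for Bub1b, 0.01 and 0.66 for Bub3 and 0.41 for Ttk. The Bub3 probe set at 0.66 did not overlap between genotypes.

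The genes grouped as controls of anaphase and cohesion were above 0 in 5 of 5 cases, at 0.04 to 0.12, and 5 of 5 were so under quantile normalization. Both centrings of the arrays move every gene's difference upward by the same amount, so they could not lower this count. Cdc20, the activator of the anaphase-promoting complex, read 10729 and 9178 against 11374 and 9713, with a difference of 0.08 ± 0.11. Ube2c, the ubiquitin-conjugating enzyme of that complex, read 11603 and 12729.5 against 12661 and 13266, a difference of 0.09 ± 0.09. Both overlapped between genotypes. Cdca3, placed in this group although it encodes a trigger of mitotic entry, read 3601 and 3673 against 4068 and 3819. Both deficient arrays were thus above both wildtype arrays, and its difference was 0.12 ± 0.09 (limma adjusted p = 0.973). Espl1, the separase gene, did not overlap either (0.09 ± 0.11), and Cdca5, which encodes the cohesion factor sororin, had the smallest difference. The deficient arrays of Cdca5, at 4004 and 3992, lay between its wildtype arrays, at 4115 and 3651. None of the 5 passed the test, and Cdc20 was -0.03 without wildtype replicate 2 and without deficient replicate 1. Cdca5 also falls below 0 without wildtype replicate 2, since both its deficient arrays were lower than wildtype replicate 1.

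The kinesins, motors that move along or dismantle microtubules, held the members with the lowest and the third lowest differences. Of the 6, 5 were below 0, though only 2 were after centring on all probe sets. Kif23, a motor of the central spindle needed for cytokinesis, read 1219 and 1064 in wildtype cells against 843 and 886 in deficient cells. Both deficient arrays were below both wildtype arrays, and the mean signals were 1142 ± 109.6 and 864 ± 30.1 (SD, n = 2), a ratio of 0.757. The difference was -0.39 ± 0.12, with an unadjusted p of 0.0109 and a limma adjusted p of 0.652, so it did not pass. It was the 1 member of 43 (2.33%) with an unadjusted p below 0.05, where 5.25% of all tested genes had one. Without wildtype replicate 1 it was -0.30, with an unadjusted limma p of 0.0840, and after centring on all probe sets -0.31, with 0.0700. Without wildtype replicate 2 it was -0.49, with an unadjusted limma p of 0.0059, and with the mean of its probe sets -0.59, with 0.0179. That mean took in a dim Kif23 probe set below the filter, at -1.13, which pulls it down. The other Kif23 probe set above the filter gave -0.26, with overlapping arrays.

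The kinetochore depolymerase gene Kif2c read 2058 and 1584 against 1501 and 1558, a difference of -0.24 ± 0.14 (limma adjusted p = 0.962). Here wildtype replicate 1 stood apart and the other 3 arrays lay close together, and without it the difference was -0.05, while it was -0.42 without wildtype replicate 2. The other Kif2c probe sets gave -0.07, -0.05 and -0.20. Kif11, the motor that separates the spindle poles, read 2047 and 1589.9 against 1751 and 1765, a difference of -0.04 ± 0.13 that turned to 0.14 without wildtype replicate 1. Kif4, Kif20a and Kif22 lay between -0.05 and 0.03.

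Among genes of spindle assembly and the spindle midzone, Tpx2, which nucleates microtubules and activates Aurka, had the largest positive difference of all members. It read 1859.9 and 1691 against 2180.2 and 1856, with a difference of 0.18 ± 0.12 (limma adjusted p = 0.971). Deficient replicate 1 stood above the other 3 arrays, while deficient replicate 2 lay just below wildtype replicate 1. The Tpx2 difference was 0.06 without deficient replicate 1 and 0.30 without deficient replicate 2, and 0.25 and 0.11 without wildtype replicates 1 and 2. Dimmer probe sets of Tpx2 were at -0.16, -0.21 and 0.09, and the mean over all 4 was -0.02. Nusap1, a spindle microtubule protein, and Prc1, which bundles midzone microtubules, were at 0.06 and -0.09.

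Centromere and kinetochore genes likewise showed no shared direction. Cenpa, the histone variant that marks centromeres, read 6982 and 6323 against 6624 and 7323, a difference of 0.07 ± 0.10. Ndc80 and Nuf2 encode partner subunits of the NDC80 complex, which binds microtubules. Nuf2 read 2125 and 1950.2 against 1715 and 1889.8, with both deficient arrays lower and a difference of -0.18 ± 0.11 (limma adjusted p = 0.964). Ndc80 read 715 and 827 against 667 and 735, which overlapped, with a difference of -0.13 ± 0.13. A further subunit of that complex, Spc25, was at 0.07, and the kinetochore motor Cenpe and the large kinetochore protein Cenpf were at 0.05 and 0.06.

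Of the cytokinesis genes, Anln, which encodes the contractile ring protein anillin, read 1079.9 and 1030.2 against 1044 and 953, a difference of -0.08 ± 0.12. Ect2, the exchange factor that activates RhoA, and Racgap1, its partner at the central spindle, were at -0.10 and 0.04. Racgap1 is the partner of Kif23 in the centralspindlin complex. Its deficient arrays read 1488 and 1979.6, on either side of both wildtype arrays.

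Mki67 and Top2a, the most used markers of cycling cells, went to opposite sides by small amounts. Mki67, which encodes the chromosome surface protein Ki-67, read 5553 and 5619 against 5792 and 5895, with both deficient arrays above both wildtype arrays and a difference of 0.06 ± 0.09. Top2a, the topoisomerase that untangles sister chromatids, read 12851 and 12723 against 12309.7 and 11396, with both deficient arrays below and a difference of -0.11 ± 0.09. Neither passed (limma adjusted p = 0.983 and 0.971). With the mean of its probe sets, which takes in a probe set below the filter, Top2a was at 0.01.

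**Figure D3:**
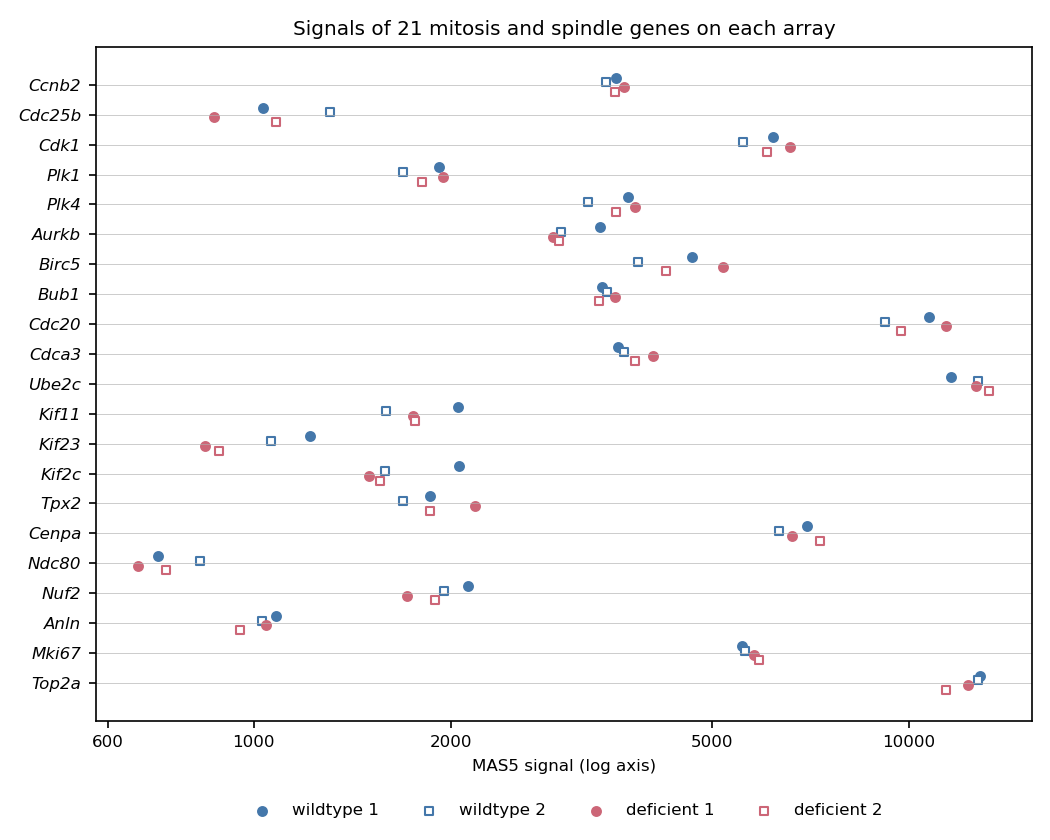
Signals (log axis) of the 21 members described array by array, circles for replicate 1 and squares for replicate 2, in blue for wildtype and red for deficient cells. For most genes the symbols of both colours interleave, and Kif23, at 843 and 886 against 1219 and 1064, shows the widest gap between colours.

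For the members, arrays of the same genotype lay no closer in the median than arrays of different genotypes. Their median absolute log2 difference was 0.136 between the wildtype arrays and 0.0951 between the deficient arrays, and 0.0876 over the 4 pairings of a deficient with a wildtype array. Over all tested genes these were 0.173, 0.167 and 0.169. The wildtype pair differed mostly in 1 direction: 33 of 43 members (76.7%) were lower in wildtype replicate 2 than in replicate 1, with a median of -0.12, where 49.2% of all tested genes were lower and their median was 0.01. Between the deficient arrays 22 of 43 were lower in replicate 2, with a median of -0.0042. Wildtype replicate 1 was the highest of the 4 arrays for 17 members and wildtype replicate 2 the lowest for 19. The groups did not overlap for 10 members (23.3%), 5 in each direction, where 33.6% of all tested genes did not overlap.

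**Figure D4:**
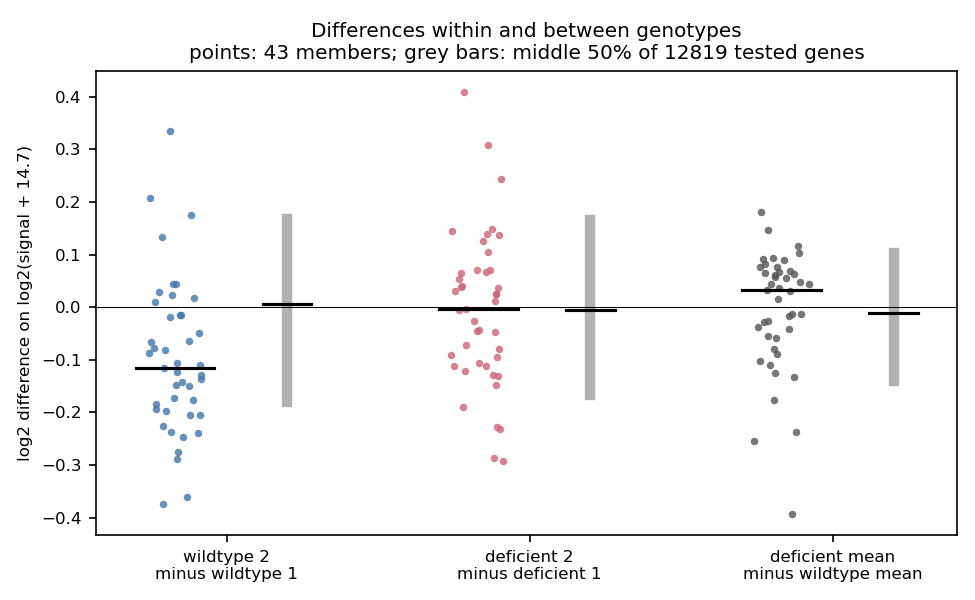
Points are the 43 members' log2 differences between the wildtype arrays, between the deficient arrays and between the genotype means, with black lines at the medians, and grey bars span the middle 50% of the 12819 tested genes. The points between the wildtype arrays are shifted to a median of -0.12, and those between the genotype means lie around 0.03.

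Probe sets of 1 gene did not always lie on the same side. Of the 43 members, 28 had more than 1 probe set above the filter; for 10 of these all lay on the same side of 0 and for 18 they did not. The 42 probe sets not chosen had a median difference of 0.01 and ran from -0.66 for the dimmer Cenpe probe set to 0.66 for a dim Bub3 probe set, both named after their values were seen. The second Cdc25c probe set, also named for its value, gave -0.40, with 333 and 361 against 245 and 277, while the chosen one gave -0.01. Of the chosen probe sets, 5 have names ending in _s_at and 6 in _x_at, marks for probes that can match more than 1 transcript, so that these signals may include others; those of Aurkb, Cdc20 and Kif2c are among them.

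Further genes of the pathway were taken from lists made by function. Of 158 tested genes of other kinetochore, condensin, cohesin, spindle, anaphase-promoting complex, transcription and G1 to S lists, 0 passed limma's test (6 had an unadjusted p below 0.05), with a median of -0.02, 66 above 0 and 92 below. Pttg1, which encodes the separase inhibitor securin and lies near Mir146 on chromosome 11 in RefSeq, had the largest positive difference of them: 8749 and 9325 in wildtype against 12806 and 13595.5 in deficient cells, or 0.55 ± 0.09 (limma adjusted p = 0.0737). Both deficient arrays were above both wildtype arrays. Pttg1 passed without wildtype replicate 1 (adjusted p = 0.0158), without wildtype replicate 2 (0.0025) and with the mean of its probe sets (0.0360), and over all alternatives its adjusted p ran from 0.0025 to 0.591. After it came the kinetochore gene Pmf1 (0.46 ± 0.21) and the kinase inhibitors Cdkn1c and Cdkn2a, which were close to background with means of 44.6 and 45.3 in wildtype cells. The lowest were the phosphatase Cdc14a (-0.46 ± 0.16), the kinesin Kif24 (-0.44 ± 0.19), E2f4 (-0.38 ± 0.32) and E2f3 (-0.34 ± 0.15), and the E2f4 value rests on deficient replicate 2, without which it was 0.10. With the mean of each gene's probe sets, Cdc14a was at -0.19, Kif24 at -0.05, E2f3 at -0.13 and Pmf1 at 0.13. Regulators of mitotic genes on these lists, named for their role after values were seen, did not pass either: Foxm1 was at 0.17 ± 0.17, Mybl2, which encodes B-MYB, at 0.07 ± 0.17, and the subunits of the MuvB core shared by DREAM and B-MYB complexes lay on both sides, with Lin9 at -0.21 ± 0.15, Lin54 at -0.21 ± 0.13, Lin37 at 0.06 ± 0.14, Rbbp4 at 0.07 ± 0.09 and the dim Lin52 at 0.17 ± 0.43. Of the 18 genes on the list of transcription regulators, 9 were above 0 and 9 below.

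The members were also set out by the CHR letters, without a test of the difference. The 28 with TTTGAA in the window had a median difference of 0.03, running from -0.39 (Kif23) to 0.12 (Cdca3), with 15 above 0. The 8 measured members whose window lacks it had a median of 0.04, running from -0.26 (Cdc25b) to 0.15 (Birc5), with 6 above 0.

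Some markers of other cells did rise. The T cell markers themselves gave no call (0 of 10 tested, 0 also at an unadjusted p below 0.05), and their signals summed to 57941 and 65660.5 in wildtype cells against 60326 and 64673 in deficient cells. The 14 B cell markers measured summed to 5244 and 7463 against 14425 and 14809. All 12 tested lay above 0, 10 had an unadjusted limma p below 0.05, and 4 passed as higher after adjustment over all genes. Markers of dendritic cells and macrophages summed to 4086 and 5378 against 11754 and 11960.5, with 3 of 9 passing as higher (5 at an unadjusted p below 0.05). The 9 tested did not move together: 6 lay above 0 and 3 below, down to -0.52 for Lyz2. Their list includes the antigen presentation genes H2-Aa, H2-Ab1 and Cd74, and the sum takes in 5 genes below the filter. If this rise is separate from that of the B cell markers was not tested. Markers of CD8 and NK cells summed to 1398 and 1468 against 1732 and 2419. All 5 tested lay above 0, 3 at an unadjusted p below 0.05, and 0 passed after adjustment. None of these markers was at 0 on any array. The 3' to 5' signal ratio of control transcripts, a sign of RNA quality, was 0.778 and 0.808 against 0.746 and 0.778 for Gapdh and 1.17 and 1.30 against 1.14 and 1.25 for actin, both overlapping. For the transferrin receptor it was 2.40 and 2.74 against 1.92 and 2.23, lower in both deficient arrays than in both wildtype arrays. What part other cells or RNA quality have in the members' values was not tested.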

How the data were processed

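RNA of 4 samples was hybridised to Affymetrix mouse arrays, starting from 100 ng per the labels. The authors deposited linear intensity values (MAS5 signals) made with MAS5, per the submitters' processing notes, which also list the Transcriptome Analysis Console. Each array's 2% trimmed mean is 500, so no further normalization was applied. Of 45101 probe sets, 64 controls were left out; 34945 have 1 gene symbol, 932 several and 9160 none. Scanner files and detection calls were not used here.

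Groups came from the labelled genotype. Signals were taken as log2(signal + 14.7), the 25th percentile of all values, which understates changes of dim genes. Genes below the 40th percentile of probe sets (a signal of 29.9) were left out. A linear model was fitted over 12819 genes with limma 3.58.1 in R 4.3.3, two-sided, with Benjamini-Hochberg adjustment. It used eBayes with trend and had 8.57 degrees of freedom, 2 of them from the arrays. The fit was tested on data simulated from its own variance model, which cannot check that model. Named genes are 12 members fixed as examples of the roles, the 6 highest and the 6 lowest differences, and the 4 highest and 4 lowest further pathway genes. The 12 include no gene of spindle assembly and the midzone. Members, lists and promoter letters were chosen with earlier results of these data known. Alternatives covered pseudocount, filter, scaling, probe set choice, variance prior, replicate block and each array left out. Promoter and microRNA sequences are from RefSeq, GRCm38.p6. Figures were drawn with matplotlib 3.10.9.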

Additional observations from a re-analysis of the deposited data

How the results depend on the processing

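No member passed limma's adjusted threshold under any of the 15 alternatives, of which median centring over tested genes was chosen after seeing the data; the smallest adjusted p of a member ran up from 0.287, without wildtype replicate 2. The median difference of the members was 0.12 after centring each array on the median of all probe sets, which also moved the median of all tested genes, to 0.07, and -0.030 to 0.056 with an array left out. Members with an unadjusted p below 0.05 were 0 after that centring, 2 with the replicate number as a block, and 1 to 2 with an array left out (Birc5 and Cdc25b without wildtype replicate 1, Kif23 and Kif2c without wildtype replicate 2, Cdc25b and Kif23 without deficient replicate 2). The count over all genes was 23, and it was 2 without a filter, 50 with centring on all probe sets, 14 with the mean of probe sets, 0 without the trend (765 with an unadjusted p below 0.05), 14 with the replicate block and 19 to 100 with an array left out (99 without wildtype replicate 1, 100 without wildtype replicate 2, 45 without deficient replicate 1), where the lone array's genotype has no spread of its own and the other pair supplies it. Of the further pathway genes 1, Pttg1, passed with the mean of probe sets, and 0 to 1 with an array left out. The cause of these shifts was not tested. The replicate numbers were not taken as pairs: deviations of same-numbered arrays correlated across genes at 0.0535, and the block changed no member's call.

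Of the 29 genes picked by the naming rule, 11 changed sign under some alternative. With the mean of probe sets these were Top2a (0.0072), Bub1 (-0.063), Kif11 (0.019), Cenpa (-0.010), Anln (0.022), Tpx2 (-0.025) and Plk4 (-0.074), and with centring on all probe sets Kif11 (0.046) and Anln (0.0036). The mean of probe sets took in those below the filter on dim signals too. For Cenpa those above the filter were at 0.07 and 0.05 and the dim one at -0.15. For Top2a they were at -0.11 and 0.09 and the dim one at 0.04. With an array left out the ranges were -0.035 to 0.15 for Plk1, -0.025 to 0.054 for Bub1, -0.031 to 0.20 for Cdc20, -0.22 to 0.14 for Kif11, -0.0044 to 0.14 for Cenpa, -0.012 to 0.19 for Plk4, -0.022 to 0.54 for Cdkn2a and -0.86 to 0.10 for E2f4. All 43 members measured passed the filter on dim signals, and the 2 arrays per genotype limit the precision. The filter at the 60th percentile left out Cdkn1c and Cdkn2a, which have no value there. Protein sequences were not used here, so a planned count of degradation motifs was not run.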
